A study of Carassius auratus with 10 samples.

Results

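Chemokines are small secreted proteins that steer migrating cells. They were described here as a set of 10 ligand genes in cultured radial glial cells (RGCs) of the goldfish, ventricle-lining glia that serve as neural progenitors in fish. A unigene, a cluster of assembled transcripts, was taken as a ligand where its symbol began with *ccl* or *cxcl* and a digit. This gave 11 symbols, and the 10 with the most control expression were kept. They stood on 19 unigenes, of 17474 symbols on 51399 unigenes in the whole series. The members were thus chosen by their control level, and *ccl25b* and *ccl20b* had been singled out with their values known, so all comparisons with the controls are given as descriptions. At the lower end of the choice, *ccl20a.3* was the last gene kept, with 34 control reads, and *ccl44* was the first left out, with 10 control reads and 0 in each treated group.

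Hypothalamus and telencephalon of adult female goldfish were the source of all cultures, which were grown in L-15 medium with fetal bovine serum and used at passage 3. The labels name 4 control cultures, 3 cultures given 1000 nM secretoneurin A (SNa), a neuropeptide cut from secretogranin, and 3 given 10 µM SKF, an agent the labels give by that name only, in each case for 24 h. The paper's methods count 3 controls and do not describe the SKF exposure. By those methods SNa was diluted in serum-free medium, and no medium is given for the controls during the exposure. Strain, genotype and the vehicle of the controls were not stated in the sources used here.

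For each unigene the deposited files give 1 normalized value of the pooled group. Consequently no difference below has a replicate check from these values, and no SD or p-value is given. The words "higher" and "lower" compare pooled groups only. The study's own test was not used here. Its methods describe replicate cultures, whereas the deposited values have the form of 1 pooled column of reads per group. Whether that test was run on separate cultures cannot be told from them. Among the annotated genes that the paper lists past its false discovery rate cut-off with SNa, none is a chemokine ligand. Every value was a whole multiple of a fixed step, which returned the pooled reads. Controls had 147886694 reads, SNa cultures 64778968 and SKF cultures 86711702. Ratios are of the normalized values, and their 95% exact binomial intervals cover counting error alone. Reads were divided by 2 for the intervals because 74.8% to 79.7% of values were even, as when both mates of a pair are counted. Levels are given as CPM, the reads scaled to the total of their group. Unigene lengths were not used. Where genes or lists are set against each other by reads, CPM or normalized counts, the order can also reflect transcript length.

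Chemokines fall into CC and CXC families by the spacing of their first cysteines, and act through G protein-coupled receptors on the target cell. Atypical receptors bind them without G protein signaling and clear them. In the vertebrate brain they guide migrating neurons and progenitors and recruit leukocytes after injury.

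*ccl25b* and *ccl20b* were the ligands that stood furthest from the controls, both lower by more than 5-fold with either agent. Both treated groups had nearly the same level of each. The other 8 ligands lay within 1 log2 unit of the controls in both comparisons. Past 1 log2 unit, 2 of 10 were lower and 0 higher with either agent, beside 5.55% lower and 1.95% higher of all symbols with SNa and 4.94% and 3.17% with SKF. A log2 ratio past 0.5 is the fold the study used for its calls, together with a p-value cut-off that is not applied here. By the fold alone, 4 of the 10 ligands were lower with SNa, namely *ccl25b*, *ccl20b*, *cxcl12b* and *ccl20a.3*, and 0 were higher. Over all symbols, 14.4% were lower and 12.4% higher past that fold. With SKF, 3 of 10 were lower, *ccl25b*, *ccl20b* and *cxcl12b*, and 0 were higher, whereas 14.4% of all symbols were lower and 16.7% higher. The median log2 ratio of the 10 ligands was -0.29 with SNa and 0.08 with SKF, beside 0.01 and 0.05 over all symbols. Both comparisons use the same control group, so they are not independent of each other. In bulk RNA, fewer cells that make a transcript and less of it per cell cannot be told apart.

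**Figure D1:**
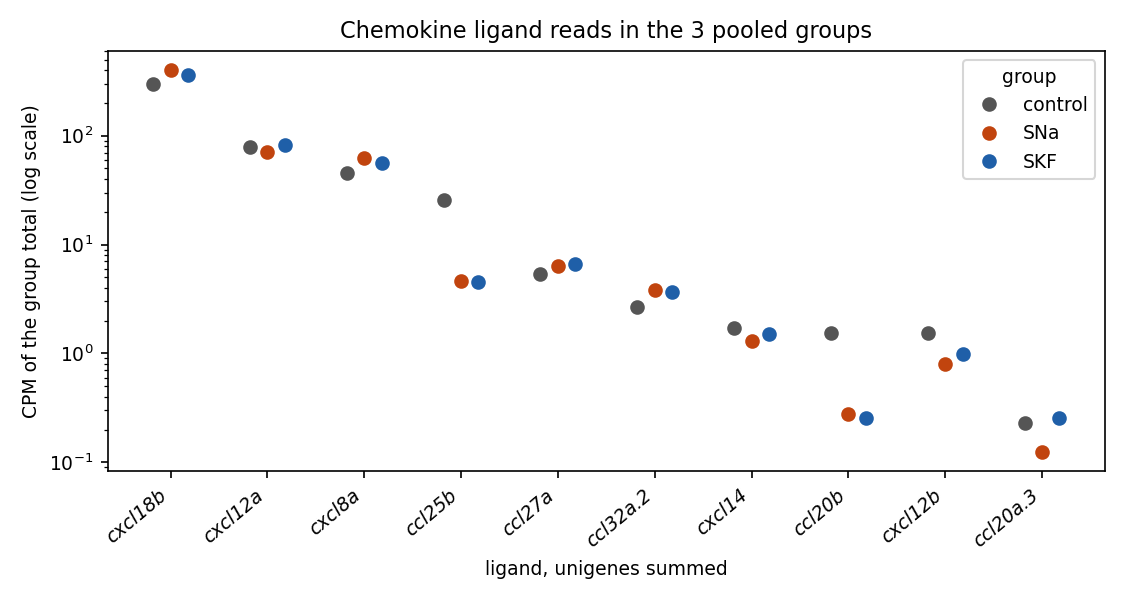
CPM of the group total (log axis) for the 10 chemokine ligands in the pooled control, SNa and SKF groups, 1 point per group and no replicate error. *ccl25b* lies at 25.5 in the control group and at 4.600 and 4.498 in the treated groups, and *ccl20b* at 1.54, 0.278 and 0.254.

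*ccl25b* is a fish relative of mammalian CCL25, which draws developing T cells to the thymus and gut through its receptor CCR9. It had 3772 reads among the controls, 298 with SNa and 390 with SKF, or 25.5, 4.600 and 4.498 CPM. The control pool was thus high and both treated pools were low. The ratio to control was 0.179 with SNa (95% counting interval 0.150 to 0.211), which is 5.59-fold lower. With SKF the ratio was 0.175 (0.151 to 0.203), or 5.70-fold lower. Of all symbols, 1.02% had a ratio as low or lower with SNa and 0.873% with SKF. Between the treated groups, the only comparison without the shared controls, SKF over SNa was 0.976, and its interval of 0.785 to 1.22 includes 1.

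The whole *ccl25b* signal came from unigene 124082. Its best protein hit, named as this gene, shared 53.4% identity over 103 aligned residues and began at the first residue of the protein. Another unigene, 167820, carried no symbol and matched a chemokine fragment called CCL-C25s at 80.8% identity. The annotation does not tie it to *ccl25b*, and its reads are not part of that signal. It had 14 control reads and 0 in both treated groups. With 0 set to a floor of 3 reads, this unigene was 2.06-fold lower with SNa and 2.75-fold lower with SKF. These values depend on the floor and carry no counting interval.

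Other unigenes named after chemokines without a *ccl* or *cxcl* symbol went in both directions. Unigene 119868, a CC chemokine named by its locus only, had 799, 299 and 412 reads in the control, SNa and SKF groups and ratios of 0.847 (0.697 to 1.03) and 0.875 (0.736 to 1.04). Unigene 112737, named *cxl10* at 32.6% identity, had 24, 28 and 38 reads and was higher, at 2.64 (1.13 to 6.25) and 2.69 (1.24 to 6.07). The other *cxl10* unigene, 40808, had 54, 30 and 22 reads, with both intervals including 1. Unigenes 2040 and 143554, CC chemokines without a symbol, had 18, 2 and 8 and 10, 10 and 0 reads.

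*ccl20b* is named after mammalian CCL20, which attracts dendritic cells and IL-17-producing T cells through CCR6 and is induced by IL-17 and NF-kB signaling. It had 228 control reads, 18 with SNa and 22 with SKF, or 1.54, 0.278 and 0.254 CPM. As for *ccl25b*, the control pool alone was high. The ratio to control was 0.179 with SNa (0.0797 to 0.351), a 5.59-fold lower value. It was 0.164 with SKF (0.0795 to 0.304), a 6.11-fold lower value. SKF over SNa was 0.912, with an interval of 0.343 to 2.49 that leaves room for differences of more than 2-fold in either direction.

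Both *ccl20b* unigenes were lower in both treated groups. Unigene 103528, which matched at 53.3% identity, had 200, 14 and 20 reads in the control, SNa and SKF groups. Unigene 151989, at 60.8% over the last part of the protein, had 28, 4 and 2 reads, and its SNa interval reaches past 1. The related gene *ccl20a.3* had too few reads to be placed beside *ccl20b*. It had 34, 8 and 22 reads, with a ratio of 0.533 for SNa (0.130 to 1.63) and 1.10 for SKF (0.465 to 2.48). It was the 1 ligand past the fold between the treated groups, with SKF over SNa at 2.05, but its interval of 0.608 to 8.83 includes 1. In that comparison 6.52% of all symbols were higher and 4.2% lower past the fold, and 0 of the 10 ligands were lower. Past 1 log2 unit the shares were 2.03% and 1.54%.

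**Figure D2:**
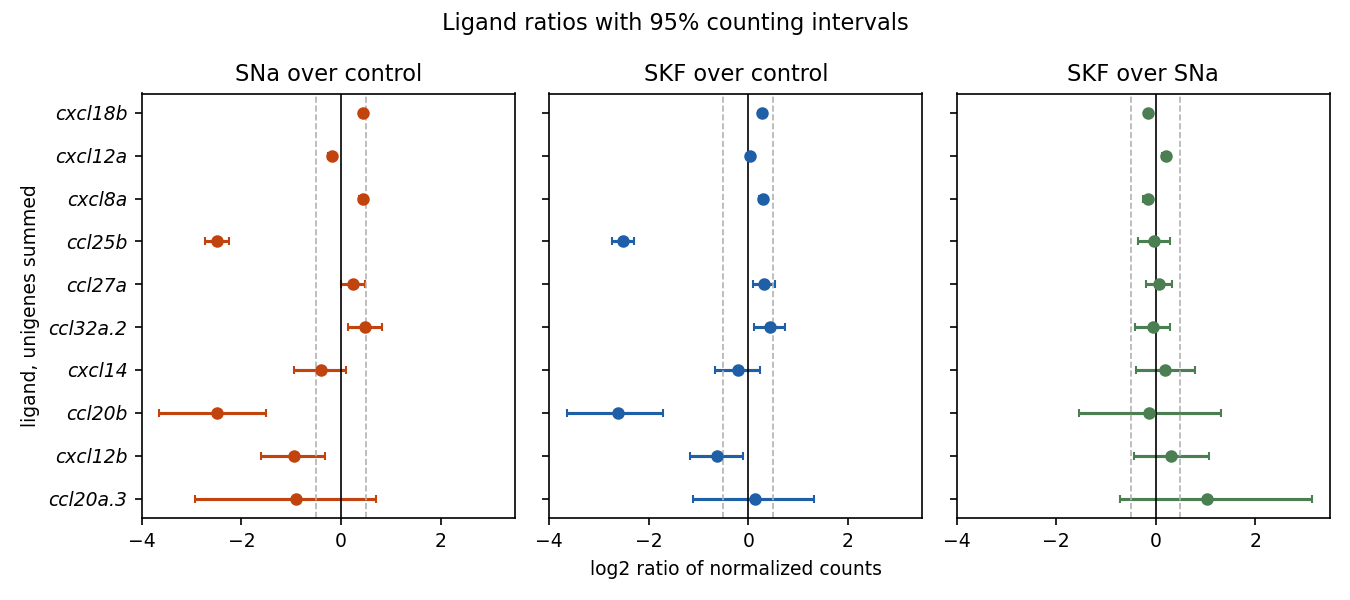
Log2 ratios of normalized counts for the 10 ligands in the 3 comparisons, with 95% counting intervals as bars and dashed lines at 0.5 and -0.5. *ccl25b* and *ccl20b* lie at -2.48 with SNa and at -2.51 and -2.61 with SKF. For SKF over SNa both are near 0, with a wide interval for *ccl20b*.

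The CC ligands *ccl27a* and *ccl32a.2* were slightly higher in the treated groups, although the SNa interval of *ccl27a* includes 1. *ccl27a*, named after the mammalian skin chemokine CCL27, which acts through CCR10, had 788 control, 412 SNa and 576 SKF reads. These correspond to ratios of 1.18 with SNa (0.995 to 1.40) and 1.24 with SKF (1.06 to 1.45). *ccl32a.2*, named as a CC chemokine gene, rested on 1 unigene, 122700, which matched its protein at only 31.4% identity. It had 398, 246 and 316 reads and ratios of 1.40 (1.11 to 1.76) and 1.35 (1.09 to 1.67). Both genes stayed within the fold of 0.5 on the log2 scale. Within *ccl27a*, the main unigene 10216 carried most reads, and 2 minor ones differed from it. Unigene 120038, at 36.9% identity, had 40, 44 and 42 reads and a SNa ratio of 2.49. Unigene 97078 had 26, 0 and 18 reads. With 0 set to a floor of 3 reads it was 3.83-fold lower with SNa, a value without a counting interval.

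Summed over the family, the 5 CC ligands had 35.3 CPM in the control group, 15.2 with SNa and 15.3 with SKF. *ccl25b* made up 72.3% of the CC reads in the control group and 30.3% and 29.4% in the treated groups. Without *ccl25b* the remaining 4 genes had 9.79, 10.6 and 10.8 CPM. The family ratio of 0.426 with SNa and 0.431 with SKF became 1.07 (0.938 to 1.22) and 1.10 (0.974 to 1.23) once that gene was left out.

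The CXC ligands held most ligand reads, 62663 of 67883 in the control group. *cxcl12a* encodes a copy of Cxcl12, which in zebrafish guides germ cells, the lateral line primordium and neural progenitors through Cxcr4 and is taken up by Ackr3. It had 11730, 4569 and 7071 reads in the control, SNa and SKF groups, with ratios of 0.882 (0.840 to 0.926) and 1.02 (0.981 to 1.07). SKF over SNa was 1.15 (1.10 to 1.22), so the SKF pool was higher than the SNa pool beyond counting error. Its 3 unigenes ranged from 0.845 to 1.07 with SNa.

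The second copy, *cxcl12b*, was lower in both treated groups. It had 226 control reads, 52 with SNa and 86 with SKF. The ratio was 0.521 with SNa (0.326 to 0.804) and 0.646 with SKF (0.443 to 0.925), and neither interval includes 1. Its 1 unigene, 31452, matched the protein at 92.8% identity. SKF over SNa was 1.23 (0.741 to 2.09).

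*cxcl8a* (interleukin 8) and *cxcl18b*, a fish CXC chemokine, both recruit neutrophils in zebrafish. *cxcl8a* had 6736, 4065 and 4874 reads, with ratios of 1.37 with SNa (1.29 to 1.44) and 1.23 with SKF (1.16 to 1.29). *cxcl18b* had 43716, 26066 and 31243 reads, with ratios of 1.35 (1.32 to 1.38) and 1.21 (1.19 to 1.24). Both were therefore somewhat higher in the treated groups, under the fold of 0.5, and slightly lower with SKF than with SNa, at 0.894 each. *cxcl18b* alone supplied 64.4% of the reads of the 10 ligands in the control group, 72.8% with SNa and 69.8% with SKF. The summed CXC level was 424 CPM in the control group, 538 with SNa and 501 with SKF.

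Of the 2 *cxcl18b* unigenes, 71336 lay at a log2 ratio of 0.59 with SNa and 0.43 with SKF, and 13796 at 0.16 and 0.01. The *cxcl8a* symbol covered 3 unigenes of unlike match. Unigene 92561, at 74.5% identity, held 6648 of the 6736 control reads. Unigenes 113356 and 31976 matched the same protein at only 31.6% and 32.1%, and they were low in the treated groups. They had 52, 6 and 14 reads and 36, 2 and 2 reads, so their SNa ratios of 0.261 and 0.126 rest on few reads. *cxcl14*, a CXC chemokine of skin and brain, had 255, 85 and 130 reads, and the intervals of its ratios, 0.755 (0.520 to 1.08) and 0.865 (0.631 to 1.18), include 1. Its 2 unigenes went opposite ways with SKF and had different best protein hits, aligned over 95 residues for 121269 and 143 for 11365. Whether both stand for *cxcl14* was not tested. Unigene 121269 lay at a log2 ratio of -0.43 with SNa and -0.50 with SKF, and 11365 at -0.34 and 0.43. The intervals of both unigenes include a ratio of 1 in both comparisons.

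**Figure D3:**
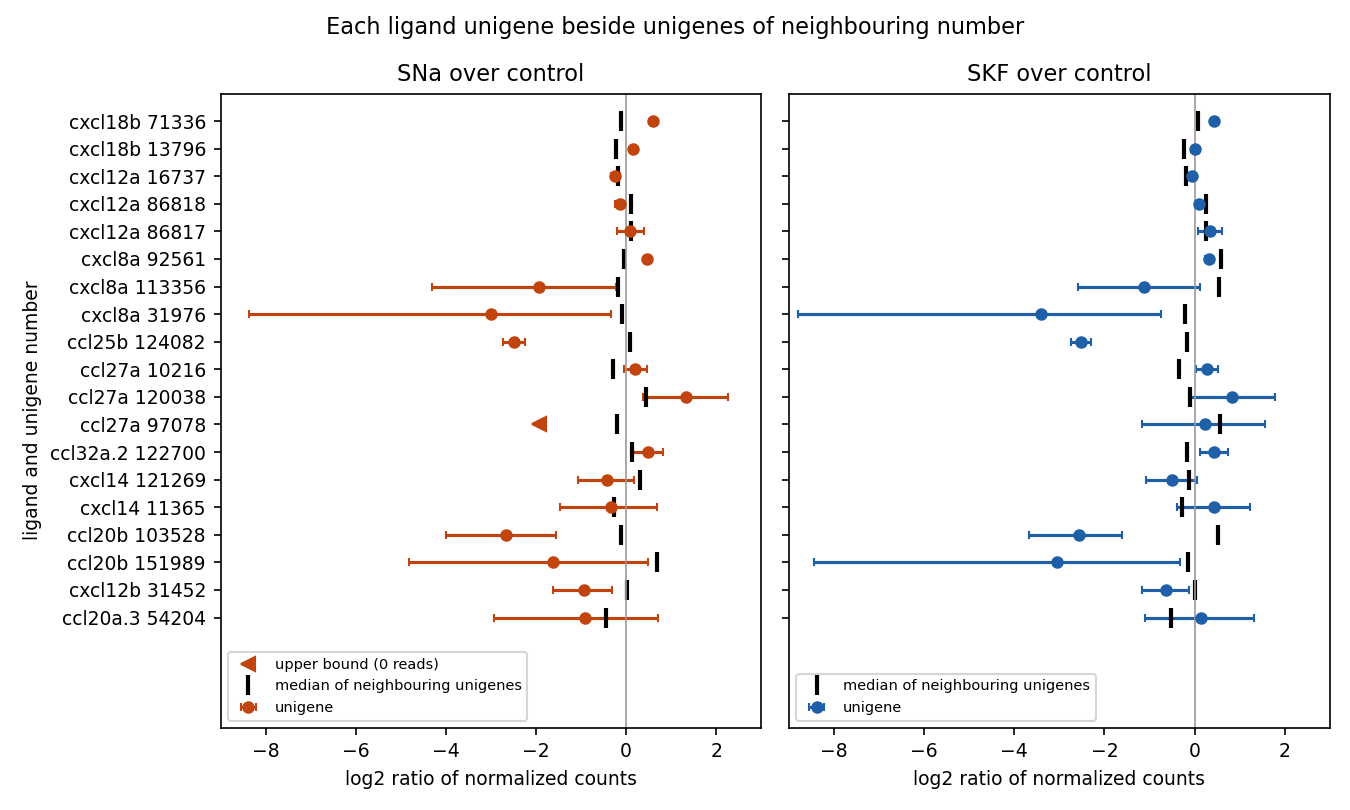
Log2 ratio of each ligand unigene (points) with 95% counting intervals (bars). Black ticks mark the median of all unigenes within 1000 numbers on either side. A triangle marks the 1 unigene with 0 SNa reads, set to the floor of 3 reads. *ccl25b* 124082 lies at -2.48 with SNa and -2.51 with SKF, and the medians of its neighbours lie at 0.08 and -0.16.

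Unigene numbers come from the assembly, and medians of neighbouring numbers varied between stretches and between comparisons. For *ccl25b* the neighbours' median log2 ratio was 0.08 with SNa and -0.16 with SKF, and 0.357% and 0.519% of the neighbours were as low or lower. For the main *ccl20b* unigene the medians were -0.10 and 0.53. Of its neighbours, 3.76% and 0.523% were as low or lower.

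Of 11707 symbols with a mean of at least 50 normalized counts, 21 lay within 0.5 log2 units of *ccl25b* in the pair of ratios to control, and 19 within that distance of *ccl20b*. The 5 nearest symbols to *ccl25b* were *mllt11*, *adcy8*, *rbp5*, *cyp26c1* and *ccl20b*. The same set, with *ccl25b* in place of *ccl20b*, was nearest to *ccl20b*. Both ligands had been singled out with these ratios known, so their nearness to each other follows from that choice. Shared regulation within the set was not tested. *cyp26c1* encodes a retinoic acid-degrading enzyme and *rbp5* a retinol-binding protein. The former had 4359, 333 and 425 reads in the control, SNa and SKF groups, and the latter 83825, 7039 and 8543. *adcy8*, an adenylyl cyclase gene, had 3184, 242 and 322 reads. The other ligands lay in denser stretches, with 1016 symbols within that distance of *cxcl12b*, 122 of *ccl20a.3* and 4480 to 6485 of each of the remaining 6.

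Of 32 receptor entries, 9 symbols were found, and 25 entries were not found, among them *ccr9* and *ccr6*, named for the receptors of CCL25 and CCL20. Several unigenes with the symbol *fgfr1op* bore a protein name of Ccr6a and were not counted. Whether they stand for this receptor cannot be told from the annotation. They held up to 912 control reads each. Their ratios ran from 0.692 to 1.07 with SNa and from 0.627 to 1.28 with SKF. *ackr3b*, the scavenger of Cxcl12, had 4268, 1078 and 1545 reads and was lower with SNa, at a ratio of 0.572 (0.519 to 0.629), and with SKF, at 0.614 (0.565 to 0.667). *cxcr4a*, a signaling Cxcl12 receptor, had 56, 21 and 20 reads, too few to place it on either side of the control. *ackr4a* and *ackr4b* encode scavengers that in mammals bind CCL25. *ackr4a* had 504, 210 and 274 reads, with both intervals including 1. *ackr4b* had 219, 167 and 178 and was higher, at 1.73 (1.28 to 2.32) and 1.38 (1.03 to 1.84). *ccr10*, named for the CCL27 receptor, had 14, 4 and 4 reads. *cxcr5* had 86, 6 and 18 reads, a ratio of 0.158 (0.0314 to 0.494) with SNa and 0.355 (0.152 to 0.739) with SKF. With more reads, *cxcr3.3* (959, 461 and 681) was at 1.09 (0.926 to 1.28) with SNa and 1.20 (1.05 to 1.39) with SKF. *ccr12a* (645, 214 and 262 reads) was lower, at 0.751 (0.598 to 0.938) and 0.689 (0.558 to 0.847). Of the 8 receptors above the filter of a mean of 10 normalized counts, 2 were lower and 2 higher with SNa past the fold, and 4 were lower and 1 higher with SKF, beside the 14.4% lower and 12.4% higher of all symbols with SNa and 14.4% and 16.7% with SKF. The 1 higher with SKF was *ccr12b.2* (40, 30 and 42 reads), which was also among those higher with SNa. Its ratios of 1.70 (0.809 to 3.49) and 1.78 (0.919 to 3.46) have intervals that include 1. The 4 lower with SKF include *cxcr4a*, whose interval of 0.263 to 1.29 also includes 1. With the top unigene alone, 1 was higher with SNa and 0 with SKF.

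**Figure D4:**
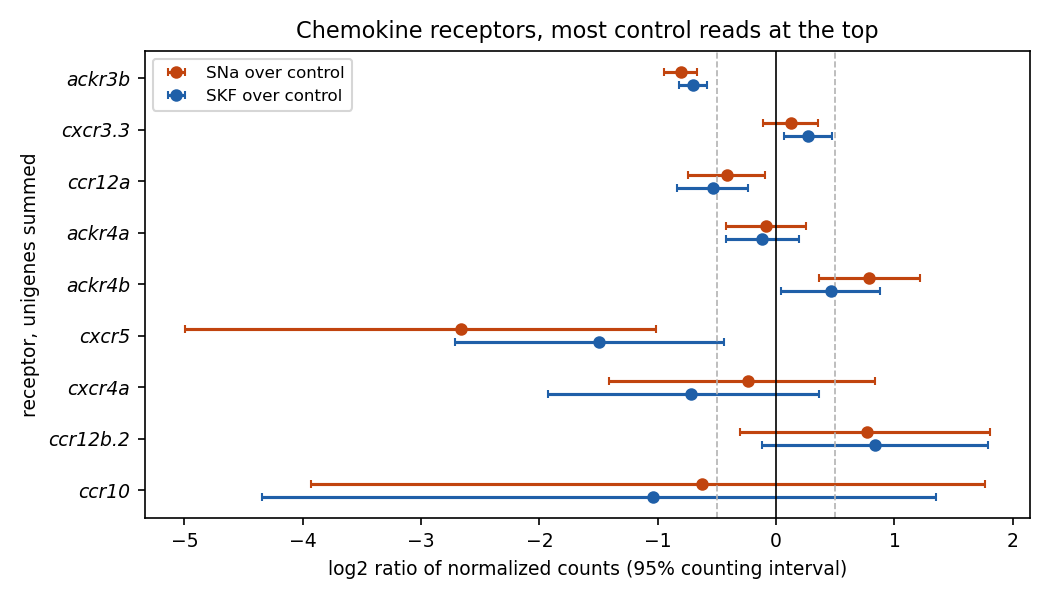
Log2 ratios to control of the 9 chemokine receptor symbols found (orange SNa, blue SKF; 95% counting intervals as bars; dashed lines at 0.5 and -0.5). *ackr3b* lies at -0.81 with SNa and -0.70 with SKF, and *cxcr5* at -2.66 and -1.49 with wide intervals.

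The counts for all gene and marker lists that follow are to be read against the same background. Past the fold, 14.4% of all symbols were lower and 12.4% higher with SNa, and 14.4% and 16.7% with SKF. Of 35 tested members of IL-17, IL-1, TNF and NF-kB signaling, which induce chemokine transcription, 0 were lower and 4 higher with SNa. The numbers with SKF were also 0 and 4, but became 1 and 8 with the top unigene alone. Their median log2 ratios were 0.15 and 0.25. Of the 4 most abundant, the transcription factor genes *cebpb* (0.09 with SNa and 0.10 with SKF) and *stat3* (-0.22 and -0.06) lay within the fold on the log2 scale. The NF-kB inhibitor gene *tnfaip3* (0.15 and 0.43) did too, and the NF-kB subunit gene *nfkb2* was at 0.53 and 0.57. Of 27 G protein, arrestin and kinase genes of receptor signaling, 2 were lower and 3 higher with SNa, and 1 and 4 with SKF. With the top unigene alone 5 were higher with SNa, and with CPM 0 were lower with SKF.

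Of 20 other cytokine genes, 6 were lower and 3 higher with SNa, or 5 higher with the top unigene alone, and 5 were lower and 4 higher with SKF. The most abundant were the growth factor gene *mdka* (midkine), at -0.25 and -0.14 on the log2 scale, the transforming growth factor genes *tgfb3*, at 0.63 and 0.78, and *tgfb2*, at 0.12 and 0.32, and *il11a*, at -0.35 and -0.17. Heparan sulfate proteoglycans hold chemokines at cell surfaces. Of their genes and enzymes 4 of 30 were lower and 7 higher with SNa, and 3 of 31 lower and 11 higher with SKF. The glypican gene *gpc1b* was at 0.32 and 0.43, the syndecan gene *sdc4* at 0.16 and 0.18, *agrn*, encoding agrin, at 0.65 and 0.73, and the sulfatase gene *sulf2b* at 0.33 and 0.39. Among proteases that can cut chemokines, 0 of 17 were lower and 4 higher with SNa, and 1 of 18 lower and 6 higher with SKF. The cathepsin genes *ctsla* (0.11 and 0.32) and *ctsd* (0.19 and 0.38) and the metalloproteinase gene *mmp14b* (0.27 and 0.30) lay within the fold, and *mmp2* was at 0.68 and 0.76.

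Markers of cell types also differed between the pools. Among RGC markers, *vim* had 546697 reads in the control group and *gfap* 239869. The fibroblast and mural list and the epithelial list each had more reads than the RGC list in all 3 groups. Of 14 RGC markers, 10 were lower with SNa and 8 with SKF, and 0 were higher, or 1 with SNa on the CPM scale. The median log2 ratio of the RGC list was -0.57 with SNa and -0.52 with SKF. *fabp7b*, encoding a brain lipid-binding protein, was further down than that median, at -2.22 and -2.09. The RGC list summed to 8242 CPM in the control group, 4835 with SNa and 4824 with SKF. The fibroblast and mural list summed to 35849, 58418 and 59676 CPM, with 1 of 16 lower and 9 higher with SNa and 2 of 18 lower and 11 higher with SKF.

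Crystallins and other lens genes had 890 CPM in the control group against 97.0 and 93.6 in the treated groups. All 11 were lower in both comparisons, with median log2 ratios of -5.23 and -5.65. This list, like the others, was chosen with earlier results of these data known, so the count is a description only. Lens and RGC marker levels were thus lower in the same pools as *ccl25b* and *ccl20b*, and their part in those ratios was not tested. The leukocyte and microglia list summed to 662, 720 and 653 CPM across the control, SNa and SKF groups. Of 12 tested, 0 were lower and 6 higher with SNa, with a median log2 ratio of 0.48, and 0 were lower and 5 higher with SKF, with a median of 0.28. With the top unigene alone 1 was lower and 3 were higher with SKF. Most of its reads were *apoeb*, which glia also express, and 19 of 33 entries, including *csf1r*, *mpeg1* and *spi1*, were not found.

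The remaining marker lists had few tested genes. Endothelial genes summed to 116, 44.5 and 45.7 CPM, most of it *cldn5a*, a tight junction gene at -1.77 and -1.78 on the log2 scale. Of these genes, 2 of 6 were lower and 1 higher with SNa, and 2 of 7 lower and 2 higher with SKF, with median log2 ratios of 0.03 and 0.21 that became -0.06 with the top unigene alone (SNa) and -0.15 at a minimum mean of 1 (SKF). Epithelial genes summed to 9104, 8099 and 7951 CPM, with 0 of 5 lower and 0 higher with SNa and 1 of 5 lower and 0 higher with SKF. Neuronal genes summed to 38.9, 37.1 and 34.6 CPM, with 2 of 7 lower and 1 higher with SNa and 4 of 9 lower and 2 higher with SKF. Oligodendrocyte genes summed to 17.4, 15.7 and 17.6 CPM, with 0 of 3 lower and 0 higher with SNa and 1 of 4 lower and 1 higher with SKF.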

How the data were processed

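After trimming, the authors joined the replicates, built a transcriptome with Trinity, reduced it to unigenes with CD-HIT and annotated these by BLAST against chordate proteins. The read-assignment program and the DESeq version were not given in the sources used here. Each value of expression signal deposited by the authors is 1 normalized count per group and unigene, scaled with DESeq for each comparison. The percent identity is the value deposited as similarity for the best protein hit, read here as identity. The fold change, p-value and FDR columns of the authors' comparisons were not used.

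Reads were recovered with a tolerance of 0.01 reads, and 100% of values were whole. Unigenes were summed per symbol. SKF over SNa used size factors over the 3 groups. For counts past the fold, medians and shares, symbols and neighbouring unigenes needed a mean of at least 10 normalized counts. They also needed reads in both groups compared, so those at 0 in either group were left out. The floor of 3 reads entered only the fold values given for 0 reads, which leave counting error out. The planned ratios were descriptions with no test. Ligands and 14 lists were chosen with earlier results of these data known. Named genes were every ligand and unigene, receptors of the ligands, and up to 4 members of each list with the highest mean. The 5 nearest symbols of ligands were also named. Added after their values were seen were *cxcr5*, *ccr12b.2*, the chemokine-named unigenes without a ligand symbol and the *fgfr1op* unigenes. Reads of near-identical gene copies cannot be told apart. Python 3.11.15, pandas 2.3.3 and scipy 1.17.1 were used.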

Additional observations from a re-analysis of the deposited data

How the results depend on the processing

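Of 88 alternative log2 ratios of the ligands, under other scaling, a pseudocount of 1 or the top unigene alone, 85 stayed within the counting interval, and 3 changed sign, all with the top unigene alone and from values whose counting intervals include 1 (*cxcl12a* with SKF and, for SKF over SNa, *cxcl14*, at -0.08, and *ccl20b*, at 0.09). The ratios outside the interval were the top unigene of *cxcl18b*, at 0.59 with SNa and 0.43 with SKF, and of *cxcl12a*, at -0.05 with SKF. At a log2 ratio past 1, 2 ligands were lower with SNa instead of 4, and all symbols counted 881 lower and 310 higher with SNa, 793 and 509 with SKF, and 242 and 320 for SKF over SNa, since the fold is stricter. CPM in place of the deposited values, an alternative chosen after seeing the data, gave the same counts of 4 and 3. The counts of ligands were not repeated with the top unigene alone. In that setting *cxcl18b* passed the fold upward with SNa, at 0.59, and *cxcl14* just passed it downward with SKF, at -0.5003. With reads not divided by 2, 9 instead of 7 SNa intervals left out 1. No paired analysis was possible because the deposited values are 1 per group, and leaving out a culture was not possible for the same reason. Depth limits *ccl20b*, *ccl20a.3* and the minor unigenes most.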
